A study of Mus musculus with 6 samples.

Results

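The Pim kinases are a family of 3 genes, Pim1, Pim2 and Pim3, taken here by gene symbol from the annotation of the array platform. Each had 1 probe set, a group of short probes along its transcript, so the family made up 3 of the 19938 genes tested (probe sets 10443527, 10598467 and 10426110). The arrays held RNA from the livers of male C57BL6 mice, 10 weeks old, which had fasted for 16 h. The treated animals received 100 ng of interleukin-6 (IL-6) into the peritoneum and the control animals received saline, and livers were taken 1 h later, with 3 arrays per group. The strain, sex, age and fast were common to both groups, and no genetic change was named. Values are log2 expression made with RMA, a procedure that corrects background, equalises the arrays and combines the probes of a probe set, and a log2 difference of 1 is a doubling.

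Pim kinases are serine/threonine kinases that have no regulatory domain or subunit and stay in an active shape once made, so their activity follows how much protein is present. Cytokines that act through JAK kinases and STAT transcription factors are the classic inducers of Pim transcripts, and IL-6 signals by this route through gp130 and STAT3. Pim mRNAs and proteins are short-lived. The kinases phosphorylate proteins of survival, cell-cycle entry and cap-dependent translation, and were first known from retroviral insertions in mouse lymphomas, where they cooperate with Myc.

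As a description of the 3 genes, the stretches of DNA just upstream of the start sites are shown. Whether these stretches bear on the responses to IL-6 was not tested. Each is the 250 bases before the first annotated start site of the gene, from RefSeq on GRCm38.p6, read 5′ to 3′ on the plus strand at chr17:29490535-29490784 for Pim1, chr15:88861944-88862193 for Pim3 and chrX:7878056-7878305 for Pim2. All 3 genes were matched in a table of 32817 such windows. Capitals mark GC boxes, the motif GGGCGG on either strand.
Pim1: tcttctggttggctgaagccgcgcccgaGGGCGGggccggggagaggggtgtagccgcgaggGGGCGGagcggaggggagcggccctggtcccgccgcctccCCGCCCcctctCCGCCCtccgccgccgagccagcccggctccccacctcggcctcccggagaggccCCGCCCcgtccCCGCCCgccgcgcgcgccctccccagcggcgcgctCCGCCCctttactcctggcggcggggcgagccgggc
Pim3: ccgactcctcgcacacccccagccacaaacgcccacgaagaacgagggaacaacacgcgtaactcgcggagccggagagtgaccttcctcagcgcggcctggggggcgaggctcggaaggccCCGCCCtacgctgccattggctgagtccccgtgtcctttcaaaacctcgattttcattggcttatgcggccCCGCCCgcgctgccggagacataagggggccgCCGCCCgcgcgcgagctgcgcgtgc
Pim2: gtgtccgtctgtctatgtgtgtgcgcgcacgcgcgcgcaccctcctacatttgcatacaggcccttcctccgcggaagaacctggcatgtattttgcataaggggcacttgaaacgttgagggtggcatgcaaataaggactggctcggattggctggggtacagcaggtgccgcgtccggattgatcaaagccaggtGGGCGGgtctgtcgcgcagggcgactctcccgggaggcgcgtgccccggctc

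The Pim1 window held 7 GC boxes, the Pim3 window 3 and the Pim2 window 1. Of all windows, 0.411% held at least 7, 8.47% at least 3 and 32.7% at least 1. GC content was 82.4% for Pim1, 68% for Pim3 and 62% for Pim2, against a median of 52.4% over all windows. The motif TTCNNNGAA, the general STAT site, was found in none of these windows and in 7.01% of all windows. Its strict form TTCCNGGAA (0.914% of windows, each of which also matches the general form), the AP-1 site TGANTCA (6.75%), the cyclic AMP response element TGACGTCA (1.55%) and the TATA box TATAAA (12.4%) were not found in them either. Both strands were searched, and these counts cover only the letters of these windows. RefSeq gives Pim1 another start site further downstream, whose window (GC content 48%) held none of the 6 motifs. Which start site was used in these livers was not tested.

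A principal component analysis separated the 3 IL-6 arrays from the 3 saline arrays along component 1 (31.6% of variance). Along component 2 (23.1%), IL-6 replicate 3 and saline replicate 2 stood apart from the other 4 arrays. The labels name no batch. The 6 measured hepatocyte markers, among them Alb and Apoa1, averaged 12.995 to 13.02 over the IL-6 arrays and 12.95 to 13.05 over the saline arrays, while the array medians over all probe sets lay between 5.42 and 5.48. At a limma adjusted p under 0.05, 0.421% of the 19938 genes were called, 77 higher and 7 lower (0.0351%) after IL-6.

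Pim1 and Pim3 transcripts rose within the hour after IL-6, Pim1 2.86-fold and Pim3 1.62-fold, and Pim2 did not pass the test. So 2 of the 3 family members were called higher, where 0.386% of all genes were. In both, each IL-6 array exceeded each saline array, as in 6.15% of all genes. In whole liver, a change in transcript per cell and a change in the number of cells that make it cannot be told apart. Only 13 of the 19938 genes had a larger rise than Pim1, and 67 had a larger rise than Pim3.

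Pim1, the founding member, had log2 values of 9.16, 9.12 and 9.28 in the IL-6 arrays and 7.62, 7.64 and 7.75 in the saline arrays. The groups did not overlap, and 1.37 log2 units lay between the lowest IL-6 array and the highest saline array. The means were 9.18 ± 0.08 after IL-6 and 7.67 ± 0.07 after saline (SD, n = 3 each). The difference of 1.52 ± 0.08 (standard error, 95% interval 1.34 to 1.69) had a limma adjusted p of 2.83e-05. On the fold scale the interval ran from 2.53 to 3.24. Only 5 genes had a smaller p.

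Pim3, which is close to Pim1 in sequence and function, had log2 values of 8.83, 8.99 and 8.96 in the IL-6 arrays and 8.15, 8.24 and 8.30 in the saline arrays. The groups were again apart, with a gap of 0.53. Means were 8.93 ± 0.09 and 8.23 ± 0.08 for IL-6 and saline (SD, n = 3 each). Pim3 rose by 0.70 ± 0.08 (95% interval 0.52 to 0.88, 1.43- to 1.84-fold), with a limma adjusted p of 0.00572. The call was lost in the fit over all 35556 probe sets (limma adjusted p = 0.0813) and without IL-6 replicate 3 and saline replicate 2 together (limma adjusted p = 0.123), with differences of 0.70 and 0.69. Pim1 was called in both of these (limma adjusted p = 0.00283 and 0.00332).

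Pim2, the member best known from lymphoid cells, had log2 values of 5.996, 6.095 and 6.03 in the IL-6 arrays and 6.03, 6.099 and 6.18 in the saline arrays. The groups overlapped: IL-6 replicate 3 and saline replicate 1 carried the same deposited value. The means were 6.04 ± 0.05 after IL-6 and 6.101 ± 0.07 after saline (SD, n = 3 each). The difference was -0.06 ± 0.08 (limma adjusted p = 0.954). Its 95% interval, -0.23 to 0.11, corresponds to 0.852- to 1.08-fold, and the intervals of Pim1 and Pim3 both lie above it. Both Pim2 means lay not far above the array medians over all probe sets (5.42 to 5.48). They were above the cutoff for dim genes, the lowest 25% (4.59). Whether a probe set at this level would show a rise in full was not tested. An exact permutation test of a single gene, 3 arrays against 3, cannot give a two-sided p under 0.1, and it gave 0.1 for Pim1, 0.1 for Pim3 and 0.3 for Pim2.

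**Figure D1:**
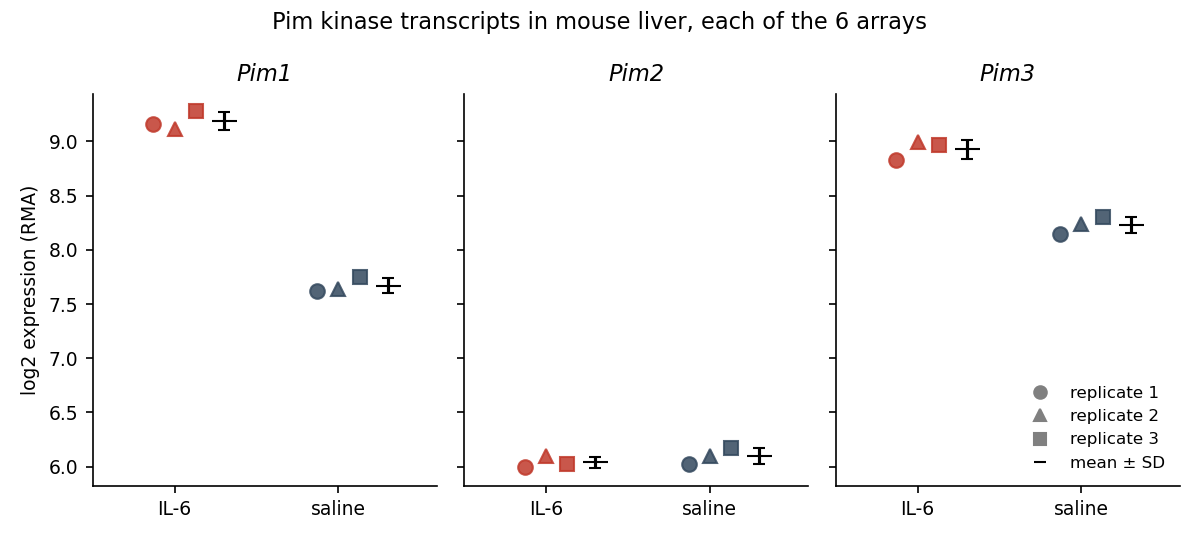
Log2 expression (RMA) of Pim1, Pim2 and Pim3 in each of the 3 IL-6 and 3 saline arrays, with the group mean and SD beside the points. The IL-6 arrays lie above all saline arrays for Pim1 (9.12 to 9.28 against 7.62 to 7.75) and Pim3 (8.83 to 8.99 against 8.15 to 8.30), and the groups overlap for Pim2. Levels of different genes are read by different probes and are not compared.

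Within the saline group the 3 genes ordered the arrays alike, but this rests on 3 arrays. How many of all genes share the order is not given here. Saline replicate 3 held the highest and saline replicate 1 the lowest saline value of Pim1, Pim2 and Pim3. The array medians did not share this order, at 5.477 in saline replicate 1, 5.45 in saline replicate 2 and 5.473 in saline replicate 3. The IL-6 arrays had no common order: the highest was IL-6 replicate 3 for Pim1 and IL-6 replicate 2 for Pim3 and Pim2.

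The responses of the members were set against each other within each array, where the difference between a pair of log2 values cancels anything that shifts both genes alike. Pim1 minus Pim3 was 0.33, 0.12 and 0.31 in the IL-6 arrays and -0.53, -0.60 and -0.55 in the saline arrays. The groups did not overlap, and the response of Pim1 was larger than that of Pim3 by 0.82 ± 0.07 (standard error, n = 3 each). Pim1 exceeded Pim2 in response by 1.58 ± 0.07. For these and the third pair the exact permutation p was 0.1, the smallest possible, and 0.1 after adjustment over the 3 pairs. Responses of separate probe sets can be compressed to different degrees, and how far this holds here was not tested.

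Pim3 minus Pim2 was 2.83, 2.897 and 2.94 in the IL-6 arrays and 2.12, 2.14 and 2.12 in the saline arrays. The response of Pim3 exceeded that of Pim2 by 0.76 ± 0.03 (standard error, n = 3 each). The saline values of this pair had an SD of 0.0114, smaller than the SD of 0.0765 for Pim3 alone and 0.0738 for Pim2 alone. Pairs of genes outside the family were not compared.

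**Figure D2:**
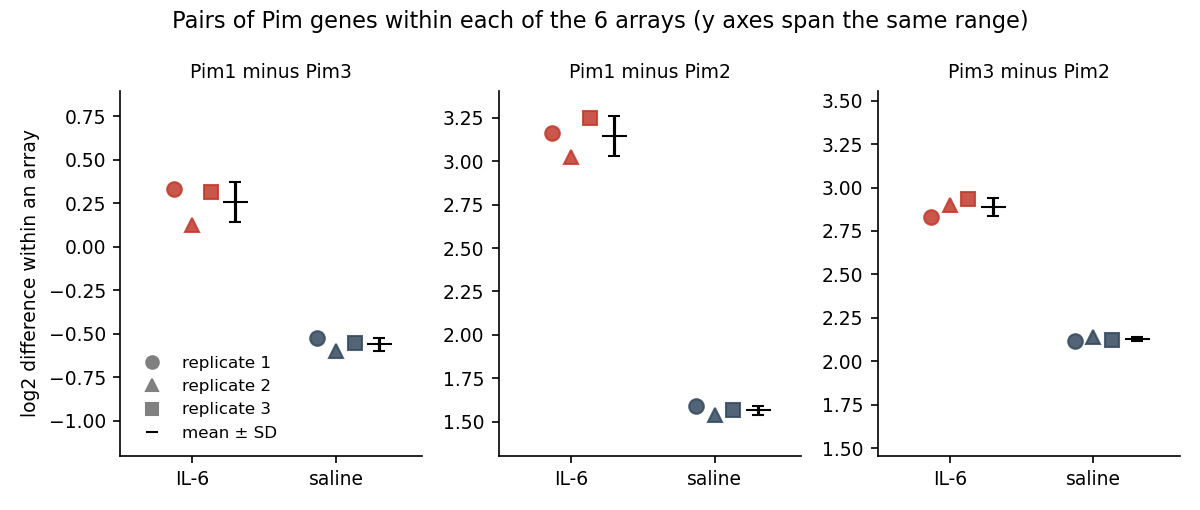
Log2 difference between a pair of Pim genes within each array, for Pim1 minus Pim3, Pim1 minus Pim2 and Pim3 minus Pim2, with group mean and SD (n = 3 each). In each panel the IL-6 arrays lie above the saline arrays, by 0.82, 1.58 and 0.76 on average, and only this shift between groups is read, not the level.

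**Figure D3:**
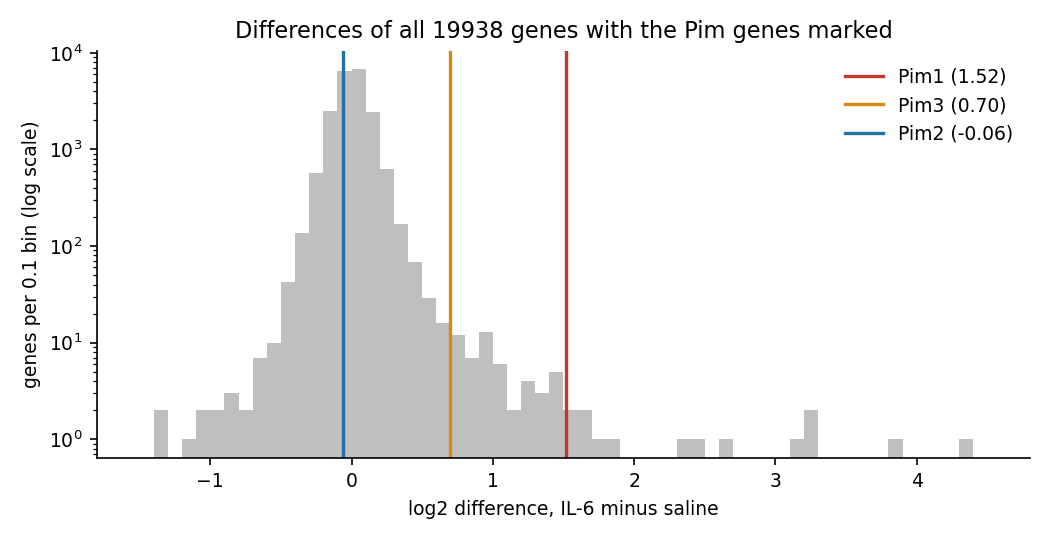
Histogram of the log2 difference, IL-6 minus saline, of all 19938 genes in bins of 0.1, with the number of genes per bin on a log scale. Pim1 at 1.52 and Pim3 at 0.70 lie in the right tail, and Pim2 at -0.06 lies among the bulk of genes, whose median is 0.003.

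In the IL-6 signalling chain itself, 1 transcript was called higher, close to the threshold. Of 11 measured members of the chain of receptor, JAK and STAT genes, 1 rose, 0 fell and 10 did not pass the test (background 0.386% higher), and the median log2 difference was 0.11, against 0.003 over all genes. The difference was positive for 10 of 11, against 51.1% of all genes. The 1 negative was the receptor gene Il6ra, at -0.20 ± 0.10 (limma adjusted p = 0.798, named after its value was seen). The 1 called was Stat3, the factor activated by IL-6, with log2 values of 9.18, 8.89 and 9.07 in the IL-6 arrays and 8.48, 8.56 and 8.52 in the saline arrays. Its difference of 0.52 ± 0.09 had a limma adjusted p of 0.04996, and 8 of 17 alternatives ended the call (limma adjusted p up to 0.410), among them leaving out any single array but IL-6 replicate 2. Il6st, which encodes gp130, had a difference of 0.29 ± 0.08. Stat5a and Stat5b, whose products induce Pim genes in blood cells, had differences of 0.22 ± 0.07 and 0.26 ± 0.09 (limma adjusted p = 0.532 and 0.531).

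Of 16 measured genes known to respond to STAT factors, 7 rose, 0 fell and 9 did not pass, and their median difference was 0.64, with 14 of 16 positive. Of all genes, 0.386% were called higher and 51.1% had a positive difference. This list, like the others, was chosen with earlier results of these data known, so its counts are a description only. Socs3, the feedback inhibitor of gp130 signalling, had a difference of 3.15 ± 0.11, 8.86-fold, and its other probe set 1.79 ± 0.25. The STAT5-associated inhibitors Cish and Socs2 rose by 1.22 ± 0.16 and 0.86 ± 0.13. The call of Cish was lost without saline replicate 1 or saline replicate 3 and over all probe sets (limma adjusted p up to 0.152). Socs2 lost its call in 7 of 17 alternatives (limma adjusted p up to 0.313), among them without any single array but saline replicate 1, and its other probe set had a difference of 1.41 ± 0.31.

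Bcl3, a nuclear IkappaB protein and transcriptional cofactor, rose by 1.18 ± 0.08, and Nfil3, a bZIP transcriptional repressor, by 1.22 ± 0.08. The AP-1 subunit gene Junb rose by 1.07 ± 0.10, a call lost over all probe sets (limma adjusted p = 0.0651). The interferon regulatory factor gene Irf1 rose by 1.07 ± 0.11, while its other probe set had a difference of 0.02 ± 0.10, so its probe sets disagree. The Irf1 call was lost over all probe sets and without IL-6 replicate 3 and saline replicate 2 together (limma adjusted p = 0.0813 and 0.0751). Among these STAT-responsive genes, Socs3 alone had a larger difference than Pim1. Fos and Socs1, also on the list and named after their values were seen, had differences of -0.001 ± 0.08 and 0.008 ± 0.099. Cebpb, a transcription factor of the acute phase, and Mcl1, a survival gene, had 0.38 ± 0.12 and 0.22 ± 0.09 and did not pass. Myc, also on this list, had 0.96 ± 0.21 (limma adjusted p = 0.180) and is described with the Pim substrates.

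Among transcripts of proteins that Pim kinases phosphorylate, none passed the test. Of 25 measured substrates, 0 were called by limma, 1 was higher at an unadjusted p under 0.05 (3.78% of all genes), and their median difference was 0.008, with 16 positive. The 1 was Myc, the partner of Pim1 in lymphoma models. Myc and Socs1 are counted both here and among the STAT-responsive genes. Myc had log2 values of 6.52, 7.31 and 7.30 in the IL-6 arrays and 6.18, 5.77 and 6.30 in the saline arrays. No IL-6 array of Myc reached down to a saline array, and 11.6% of all genes were free of overlap in either direction, but IL-6 replicate 1 stood far below the other IL-6 arrays. The difference was 0.96 ± 0.21 (limma adjusted p = 0.180), and without IL-6 replicate 1 it was 1.22 and was called (limma adjusted p = 0.0245). In 16 of 17 alternatives Myc was not called, with differences down to 0.67 and limma adjusted p up to 0.733. Eif4b, a translation initiation factor, had 0.13 ± 0.08, the transcription factor gene Myb -0.14 ± 0.08, and Bad, the death-promoting BCL2 relative that Pim kinases inactivate, 0.007 ± 0.09 (named after its value was seen).

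Factors of AU-rich mRNA decay and stability, and factors that bear on Pim protein stability, were looked at as separate groups. Whether they act on Pim mRNA or protein in these livers was not tested. Of 8 genes for proteins that bind AU-rich or other decay elements in short-lived mRNAs, 3 rose, 0 fell and 5 did not pass, and the median difference was 0.13, where 0.386% of all genes were called higher and the median was 0.003. Zfp36, which encodes the decay factor tristetraprolin, had log2 values of 9.73, 9.82 and 9.96 in the IL-6 arrays and 8.28, 8.47 and 8.44 in the saline arrays. It rose by 1.43 ± 0.09 (limma adjusted p = 0.000115). Its relative Zfp36l1 rose by 1.03 ± 0.13 (limma adjusted p = 0.00998, and 0.132 over all probe sets and 0.0629 without IL-6 replicate 3 and saline replicate 2 together). Zc3h12a, which encodes the ribonuclease Regnase-1, rose by 0.47 ± 0.08, a call lost in 9 of 17 alternatives, on leaving out any array among them (limma adjusted p up to 0.350). Zfp36l2, Rc3h1 and Hnrnpd had differences of 0.13 ± 0.08, 0.14 ± 0.08 and -0.07 ± 0.07, and the other probe set of Rc3h1 had -0.07 ± 0.09.

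Of 8 measured genes that bear on the stability of Pim proteins, namely heat shock proteins, the ubiquitin ligase gene Stub1 and subunits of the phosphatase PP2A, limma called 0, and 1 had an unadjusted p under 0.05 (6.62% of all genes). It was Hsp90aa1, a chaperone with a difference of 0.35 ± 0.14 and other probe sets at 0.33 ± 0.14 and 0.37 ± 0.17. The median difference of the 8 was 0.03. The phosphatase subunit gene Ppp2r1a and the heat shock gene Hspa1a both had 0.08, with standard errors of 0.08 and 0.07. The list of growth kinases held AKT, SGK and S6 kinases, which share substrates with Pim kinases, and the upstream kinases Pdpk1 and Mtor. Of its 8 measured members, limma also called 0, with 1 lower at an unadjusted p under 0.05 (2.83% of all genes). The median difference was 0.10. The 1 lower was Pdpk1, the kinase that activates AKT, at -0.24 ± 0.10. Sgk1 and Sgk3 had differences of 0.25 ± 0.14 and 0.25 ± 0.13.

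**Figure D4:**
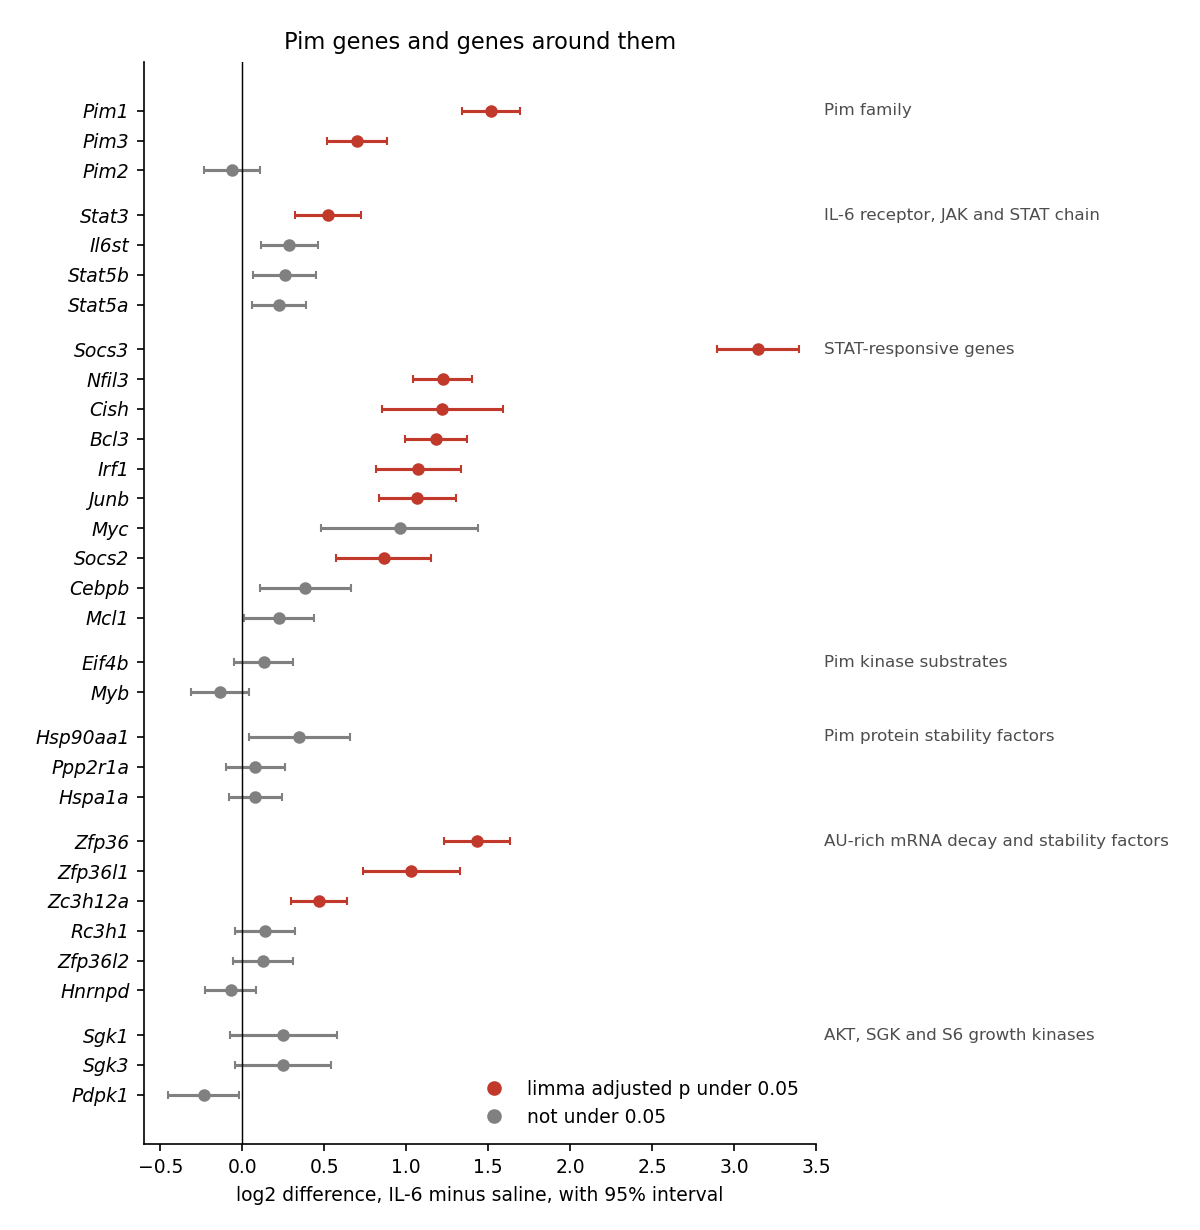
Log2 difference, IL-6 minus saline, with its 95% interval from limma, for the Pim genes and named members of 6 gene lists (n = 3 arrays per group). Red points had a limma adjusted p under 0.05. Pim1 at 1.52 is exceeded among the plotted genes by Socs3 alone, at 3.15, and the 3 called decay factors lie between 0.47 and 1.43.

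Over the 6 arrays, the genes whose values followed Pim1 most closely were Zfp36 (r = 0.996), the metalloreductase gene Steap4 (0.995), the stress gene Gadd45a (0.995), Bcl3 (0.995) and the acute-phase gene Saa2 (0.994). For Pim3 they were Zfp36 (r = 0.992), Ddx19b (0.987), Extl3 (0.987), Pim1 (0.985) and Cyp4f39 (0.984). For Pim2 they were Foxd4 (r = 0.997), D630044L22Rik (0.988), Lrfn2 (0.984), Thap8 (0.983) and Olfr316 (0.976). Ddx19b, Extl3 and Cyp4f39 were not called (limma adjusted p = 0.0526, 0.281 and 0.810), nor was any of the 5 for Pim2 (at least 0.808). Cyp4f39 was under the cutoff for dim genes (4.59), with means of 4.57 after IL-6 and 4.43 after saline. These Pearson correlations describe 6 points that share the treatment groups and the normalization, and 285 genes for Pim1, 249 for Pim3 and 98 for Pim2 had r above 0.9. Zfp36 alone appears beside both Pim1 and Pim3.

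Pim genes are also expressed in blood cells, so markers of other liver cell types were read on the same arrays. Relative to the saline mean, the 9 Kupffer cell and macrophage markers averaged -0.03 to 0.27 over the IL-6 arrays, highest in IL-6 replicate 2, and -0.104 to 0.08 over the saline arrays, and 0 of 9 were called. The difference was positive for 8 of these 9, against 51.1% of all genes, with a median of 0.09. The 8 neutrophil markers averaged -0.06 to 0.17 over the IL-6 arrays and -0.100 to 0.071 over the saline arrays. Of their differences, 4 were positive and 4 negative. At an unadjusted limma p under 0.05, 1 was higher and 1 lower (3.78% and 2.83% of all genes). Only S100a8 was called, at 0.65 ± 0.09, with a saline mean of 3.598. That level is under the cutoff for dim genes, the lowest 25% (4.59). Its call ended in 8 of 16 alternatives, which included each removal of 1 array except that of IL-6 replicate 3. The highest limma adjusted p was 0.152. Markers of T and NK cells (0 of 9 called), B cells (0 of 5), endothelial cells (0 of 7) and the single erythroid marker measured (0 of 1) overlapped between the groups as list means. Positive differences were found for 6 of 7 endothelial, 4 of 9 T and NK cell, 2 of 5 B cell and 0 of 1 erythroid markers. The part of these cell types in the Pim1 and Pim3 differences was not tested.

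**Figure D5:**
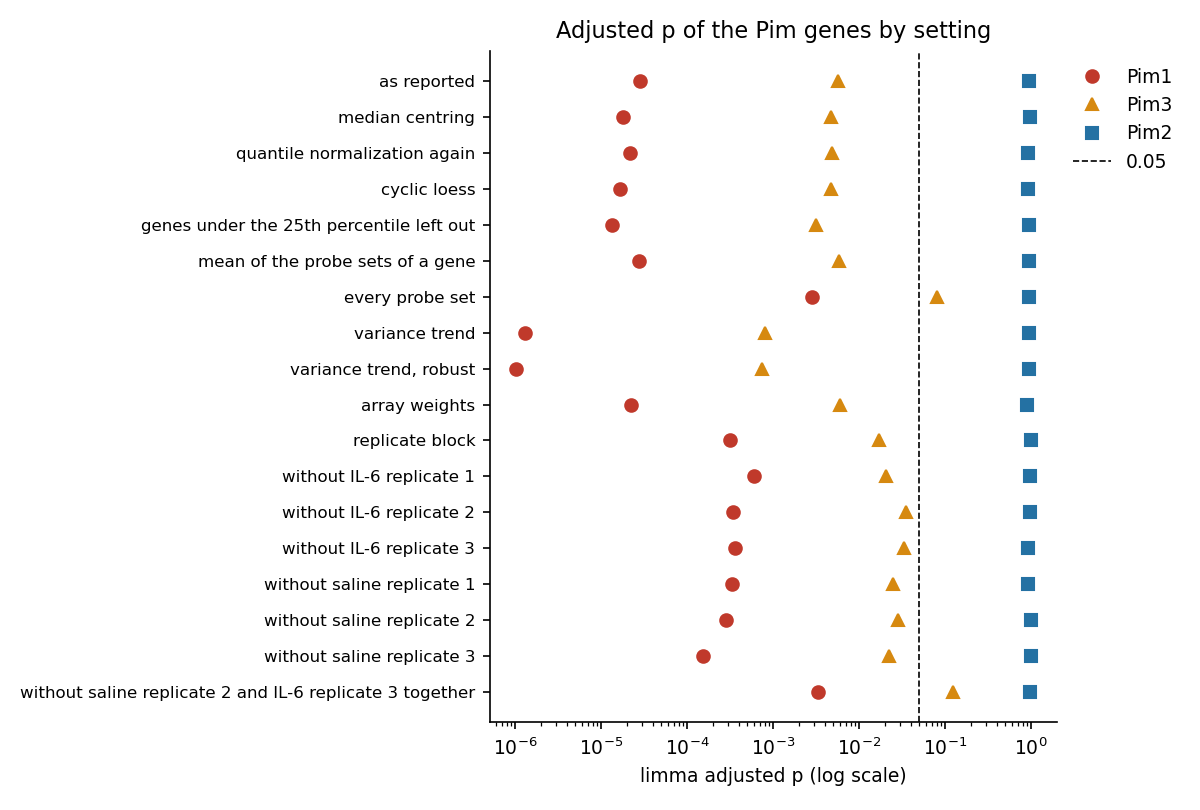
Limma adjusted p (log scale) of Pim1, Pim3 and Pim2 as reported and under 17 other settings, with the threshold of 0.05 dashed. Pim1 lies below it in each (up to 0.00332), Pim3 in all but every probe set (0.0813) and the fit without IL-6 replicate 3 and saline replicate 2 (0.123), and Pim2 lies above it in each.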

How the data were processed

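The deposited table gives, for each probe set, log2 expression. RMA is the tool in the submitters' processing notes, and the labels describe biotin-labelled RNA on 1-colour arrays. No RMA version or setting is stated in these sources. The log2 values were used as deposited, and scanner intensities were not used.

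Of 35556 probe sets, 21789 had exactly 1 gene symbol in the platform annotation, and genes with several kept the probe set with the highest mean, which left 19938 genes. IL-6 was compared with saline by limma 3.58.1 (lmFit and eBayes, R 4.3.3), two-sided, with Benjamini-Hochberg adjustment over all genes and a threshold of 0.05. The number of arrays limits the precision: the median standard error was 0.089. The labels do not state that each array is its own mouse, and p-values therefore reflect only how far these samples scatter, which may be technical. The fit was tested on simulated data.

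The members, the 6 gene lists, the 7 marker lists and the motifs were chosen with earlier results of these data known. Of 135 list entries, 14 had no probe set of a single symbol and are not analysed here. The text names the Pim genes, every called list member, up to 3 others per list by smallest p, called markers and the 5 genes most correlated with each Pim gene. RefSeq places the lncRNA gene Gm26885 over part of Pim1 and the gene model Gm33049 over part of Pim3. Neither was among the genes tested, and whether the Pim probe sets detect them was not tested. Figures were drawn with matplotlib 3.10.9.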

Additional observations from a re-analysis of the deposited data

How the results depend on the processing

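The analysis was repeated under 17 alternatives, of which the within-array pairs had 11. Pim1 was called in all 17 (differences 1.45 to 1.56, limma adjusted p up to 0.00332), and Pim2 in none (-0.098 to -0.024). Pim3 had differences of 0.66 to 0.75 and lost its call in 2, at 0.70 when every probe set was tested and at 0.69 without IL-6 replicate 3 and saline replicate 2 together. Leaving out a single array gave limma adjusted p values of 0.0207 to 0.0350 for Pim3. The response differences ran from 0.77 to 0.88 for Pim1 against Pim3, 1.51 to 1.64 for Pim1 against Pim2 and 0.74 to 0.79 for Pim3 against Pim2, with exact permutation p values from 0.1 to 0.333, none of which these designs could bring under 0.05.

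Over all genes, testing every probe set left 16 higher and 1 lower, and 31 rose and 2 fell without IL-6 replicate 3 and saline replicate 2 together. Leaving out a single array gave 45 to 67 higher and 3 to 5 lower genes. The cause of these lower counts was not tested. The Pim genes and the list members and markers named by the rule kept the sign of their difference in the alternatives run. Fos, Socs1, Bad, Il6ra and the genes named only by correlation were not recomputed. The replicate number served as a block in 1 alternative. Deviations of same-numbered arrays correlated at 0.08, -0.12 and -0.09. With 3 arrays per group, these values cannot show whether same-numbered arrays were paired. With the block Pim1 (1.52), Pim3 (0.70) and Pim2 (-0.06) stayed on the same side of the threshold, and the calls of Stat3, Zc3h12a and S100a8 were lost. Median centring moved the median difference of all genes to 0.02.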
